A study of Mus musculus with 10 samples.

Results

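The genes described here are the 10 members of the calcium cycling set of the sarcoplasmic reticulum: Casq1, Casq2, Trdn, Asph, Hrc, Ryr2, Atp2a2, Pln, Sln and Slc8a1. They were taken by name from a table of 23337 genes, and all 10 were found. The RNA came from cardiomyocytes of 14-day-old mice that carried either 2 floxed copies of Actn2 (Actn2-FF, the knockout, 5 animals) or 1 floxed and 1 normal copy (Actn2-F+, the heterozygote, 5 animals). Actn2 encodes alpha-actinin-2, which crosslinks actin filaments at the Z-line. Mice of both groups had been given AAV9-cTNT-Cre on postnatal day 1, a virus in which the cardiac troponin T promoter drives the recombinase, so the heterozygotes are controls that also express Cre and can lose their floxed copy. Cells were freed by collagenase perfusion of the heart and sorted by fluorescence. What the sort selected, and which chambers of the heart were used, is not given in the sources used here.

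In each heartbeat, calcium enters the cardiomyocyte and opens the ryanodine receptor, which releases the calcium stored in the sarcoplasmic reticulum. Calsequestrin holds that store in the lumen and is anchored to the receptor by triadin and junctin. The pump SERCA2 then returns calcium to the reticulum, restrained by the small membrane proteins phospholamban and sarcolipin, and the sodium-calcium exchanger expels the remainder from the cell. Casq2 is the calsequestrin of heart and Casq1 the main one of skeletal muscle, while Sln in the adult mouse heart is known as a gene of the atria.

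Levels are given in CPM, which are counts scaled to a common library size after TMM scaling, and 5 values in a row follow the numbers of the animals. Differences were tested by quasi-likelihood in edgeR over 11870 genes, and "called" means an adjusted p under 0.05. In that test 2241 genes (18.9%) were called, 10.2% higher and 8.64% lower in the knockout. Scaling by library totals alone moved the share of calls that were higher from 54.3% to 68.9%. Actn2 itself was at 1217 ± 55.3 CPM in the knockout and 3181 ± 358 CPM in the heterozygote (SD, n = 5 each), with every knockout below every heterozygote (log2 fold change -1.39, SE 0.0910). Total counts ran from 8086656 to 25237696 per sample. Of 8 cardiomyocyte markers all were tested, 1 was called higher and 1 lower, and their summed level was 100944 to 127399 CPM in the knockout and 101422 to 128026 CPM in the heterozygote. Among these 8, 3 had an unadjusted p under 0.05 and DESeq2 called 2. Over all 11870 genes DESeq2 called 2625, which is the background of its counts below. The share of all genes at an unadjusted p under 0.05 is not given here.

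Casq1, the skeletal-muscle calsequestrin gene (chromosome 1, 172209894 to 172219895 of mm10, minus strand), is shown beside Casq2, the cardiac gene (chromosome 3, 102086510 to 102146512, plus strand), by the 250 bases before the RefSeq start of each gene in GRCm38.p6, the same build. The Casq1 window is chr1:172219896-172220145 on the minus strand and the Casq2 window is chr3:102086165-102086414 on the plus strand, and no exon of the GENCODE M21 annotation lies in either window. Sequences run 5′ to 3′, and capitals mark the matches to motifs of muscle and general promoters.
Casq1: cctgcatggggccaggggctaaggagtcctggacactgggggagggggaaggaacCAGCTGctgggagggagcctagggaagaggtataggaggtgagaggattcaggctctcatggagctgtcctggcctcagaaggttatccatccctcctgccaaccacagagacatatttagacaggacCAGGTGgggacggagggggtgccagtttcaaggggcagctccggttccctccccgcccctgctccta
Casq2: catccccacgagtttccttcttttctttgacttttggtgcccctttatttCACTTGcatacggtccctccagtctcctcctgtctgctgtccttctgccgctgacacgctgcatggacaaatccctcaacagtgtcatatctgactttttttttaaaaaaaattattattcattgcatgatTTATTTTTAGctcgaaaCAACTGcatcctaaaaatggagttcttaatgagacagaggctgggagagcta
The search covered both strands and took the E-box CANNTG, the MCAT element, the TATA box, the MEF2 box and the CArG box. MCAT was spelled CATTCC. The TATA box was spelled TATAAA. Casq1 held 2 matches, both to the E-box. Casq2 held 2 E-box matches and 1 MEF2 box match, which did not overlap one another. An E-box occurs in 66.2% of 32536 promoter windows of this length, MCAT in 12.6%, the TATA box in 12.3%, a MEF2 box in 2.89% and a CArG box in 1.48%. G and C made up 61.6% of the Casq1 window and 41.6% of the Casq2 window.

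Casq1 was at 1229, 811, 779, 491 and 424 CPM in the knockouts, against 46.4, 54.8, 36.9, 22.9 and 27.9 CPM in the heterozygotes. The lowest knockout lay far above the highest heterozygote, and the knockouts also differed among themselves, with the first highest. The fitted fold change was 19.7 (log2 fold change 4.30). Casq1 was already known as one of the largest rises when the genes were chosen, so this is a description, with no test or interval. Its log2 fold change lay between 4.05 and 4.47 when any 1 animal was left out. Casq2 was at 2119.9, 2008, 1659, 1943 and 1749 CPM in the knockouts, and at 2415, 2368, 1791, 1636 and 2024 CPM in the heterozygotes. These ranges overlapped almost fully, and Casq2 was not called (log2 fold change -0.11, 95% interval -0.36 to 0.14, adjusted p = 0.561).

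With counts divided by exon length, Casq1 made up 43.2%, 34.6%, 38.1%, 24.9% and 24.1% of calsequestrin RNA in knockouts 1 to 5. In heterozygotes 1 to 5 it made up 2.46%, 2.95%, 2.63%, 1.80% and 1.78%. The Wilson 95% interval of the share was 42.6 to 43.8% in knockout 1 and 1.59 to 1.996% in heterozygote 5. Such intervals cover counting error only, not the spread between animals. The mean share was 33.0% ± 8.33 against 2.32% ± 0.517 (SD, n = 5 each), given as a description. In every knockout Casq2 nevertheless remained the more abundant of the pair. The sum of the 2 genes was 937 to 1518 CPM per kb of exon in the knockout and 677 to 1007 CPM per kb in the heterozygote, with overlap between the groups.

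**Figure D1:**
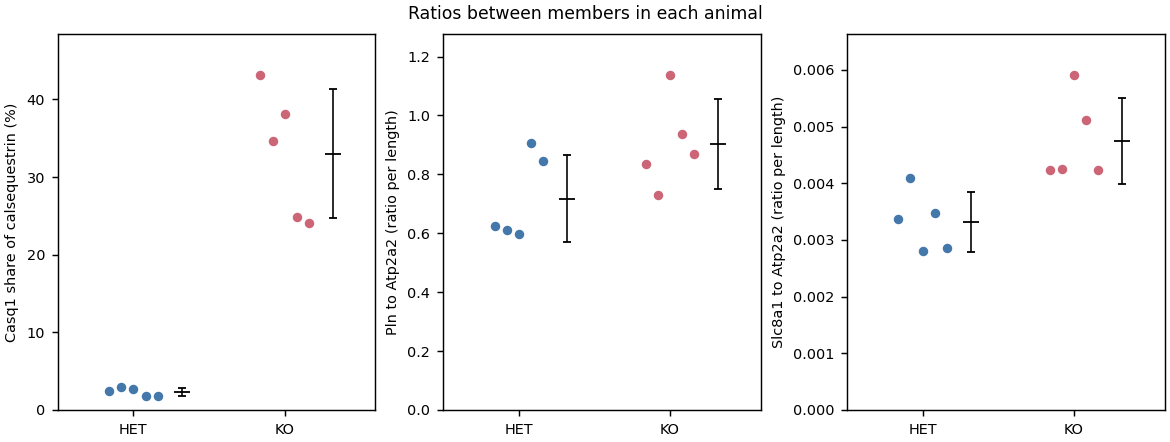
Ratios between members in each animal, from counts divided by exon length: Casq1 as a percentage of Casq1 plus Casq2, and the ratios of Pln and of Slc8a1 to Atp2a2. Each point is an animal (HET heterozygote, KO knockout), the black mark is the mean with its SD, and axes start at 0. The Casq1 share is 24.1% or more in the knockouts and 2.95% or less in the heterozygotes.

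Because Casq1 is the main calsequestrin gene of skeletal muscle, genes of skeletal fibres were read in the same libraries. Of 13 such markers, 3 were tested and 9 stayed under 1 CPM in all 10 samples, with Myod1 at 0 counts throughout. The summed level of the list was 5.46 to 9.37 CPM in the knockout and 5.61 to 8.35 CPM in the heterozygote. Within the list, 1 gene was called, Cacna1s, the calcium channel of skeletal transverse tubules, and it fell (2.87 to 1.14 CPM, log2 fold change -1.30, adjusted p = 0.00714). Mylpf, a fast-fibre myosin light chain gene, was at 0.878 to 1.44 CPM in the knockout and 0.394 to 1.55 CPM in the heterozygote and was not called (log2 fold change 0.81, adjusted p = 0.167). Myh8, the perinatal myosin heavy chain gene, was too low to be tested, but its groups did not overlap, at 0.208 to 1.23 CPM in the knockouts and 0 to 0.128 CPM in the heterozygotes. Of other skeletal paralogs of the members, Ryr1, the skeletal ryanodine receptor, had 0 CPM in every sample, which may mean that it was not counted. Atp2a1, the fast-muscle pump SERCA1, was near absent, at 0.411 to 0.878 CPM in the knockout and 0.333 to 2.58 CPM in the heterozygote.

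The genes whose pattern over the 10 samples was nearest to that of Casq1 were sought among 8368 genes averaging 10 CPM or more. The measure was the root mean square difference in log2 CPM after each gene was centred on its heterozygote mean, and since it counts the size of the rise, it picks genes that rose by a like amount. Nppa, the atrial natriuretic peptide gene, was nearest (0.42), and its level was 918.5 to 2262 CPM in the knockout and 50.5 to 224 CPM in the heterozygote. Gnao1, a G-protein alpha subunit gene, came next (0.45), at 41.9 to 108 CPM against 3.89 to 7.12 CPM. In Gnao1, as in Casq1, knockout 1 was highest and knockouts 4 and 5 were lowest, a likeness that the choice by pattern favours. In Nppa, by contrast, knockout 5 (1680 CPM) lay above knockout 2 (1531 CPM). The secreted protease gene Adamts8 (0.52), the transcript AW551984 (0.61) and the metalloprotease gene Mmp23 (0.82) followed. In the knockout they averaged 22.2, 75.8 and 19.6 CPM, against 1.75, 4.59 and 1.85 CPM in the heterozygote. Like Gnao1 (5.06 CPM in the heterozygote), they reached 10 CPM only through the knockouts. Adamts8 shared the order named for Gnao1, while AW551984 was highest in knockout 3 (110 CPM) and Mmp23 was lower in knockout 2 than in knockout 4. The ranking uses the Casq1 rise known when the genes were chosen, so it is a description.

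The genes of proteins that tie calsequestrin to the receptor or share its lumen did not move as one: Asph rose, Hrc fell and Trdn was not called. Counting members other than Casq1, 9 were tested and 3 were called, 1 higher and 2 lower, against a background of 18.9% of all genes. Their median log2 fold change was -0.09, against 0.0023 for all tested genes. In 1 of the 9 every knockout lay above every heterozygote, against 8.41% of all genes, and in 1 every knockout lay below, against 6.32% (14.7% in either direction).

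Asph was the member called higher. This gene (chromosome 4, 9449085 to 9669162) encodes junctin, the calsequestrin anchor, as well as an aspartyl hydroxylase and further products of the same locus that counts per gene cannot part. Its level was 712, 652, 640.0, 633 and 607 CPM in the knockouts, against 524, 456, 451, 434 and 501 CPM in the heterozygotes. All knockouts lay above all heterozygotes, with little spread in either group. The fold change was 1.37 (95% interval 1.21 to 1.55; log2 0.46, SE 0.0843, edgeR adjusted p = 0.00181). Some exon bases of Asph are shared with 1 other gene, Clvs1, and reads there are assigned to neither.

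Hrc was called lower. It encodes the histidine-rich calcium-binding protein of the reticulum lumen (chromosome 7, 45335269 to 45338972), which binds both triadin and SERCA2. Its level was 146, 133, 167, 131 and 166 CPM in the knockouts, against 222, 256, 237, 191 and 187 CPM in the heterozygotes. The groups did not overlap, with knockout 3 and heterozygote 5 closest. The fold change was 0.681 (95% interval 0.575 to 0.806; log2 -0.55, SE 0.114, edgeR adjusted p = 0.00363). Asph and Hrc stayed called whichever animal was omitted (10 fits) and under each of 10 further settings.

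Trdn, the triadin gene (chromosome 10, 33083483 to 33476709), was at 524, 454, 592, 510.3 and 497 CPM in the knockouts, and at 551, 448, 496, 597 and 655 CPM in the heterozygotes. The ranges overlapped, and Trdn was not called (log2 fold change -0.09, 95% interval -0.33 to 0.14, adjusted p = 0.612). The release channel gene Ryr2 was at 691, 749, 833, 623 and 811 CPM in the knockouts, and at 740.0, 771, 859, 649 and 579 CPM in the heterozygotes. Both groups spanned nearly the same range (log2 fold change 0.04, 95% interval -0.20 to 0.29, adjusted p = 0.837), and the sign of this difference changed with the processing.

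Ryr2 lies on chromosome 13 at 11553103 to 12106945, 162 kb from the targeted gene Actn2 (12269427 to 12340732), and both are on the minus strand. With Ryr2, 13 genes of the table lie within 1 Mb of Actn2. Of these 7 were tested and 0 were called with edgeR, while 2 had an unadjusted p under 0.05 and DESeq2 called 1, Gm10336. Gm10336 lies between Ryr2 and Actn2 (log2 fold change -0.66, edgeR adjusted p = 0.0534), as does the nearest gene Mtr (0.07, adjusted p = 0.726).

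**Figure D2:**
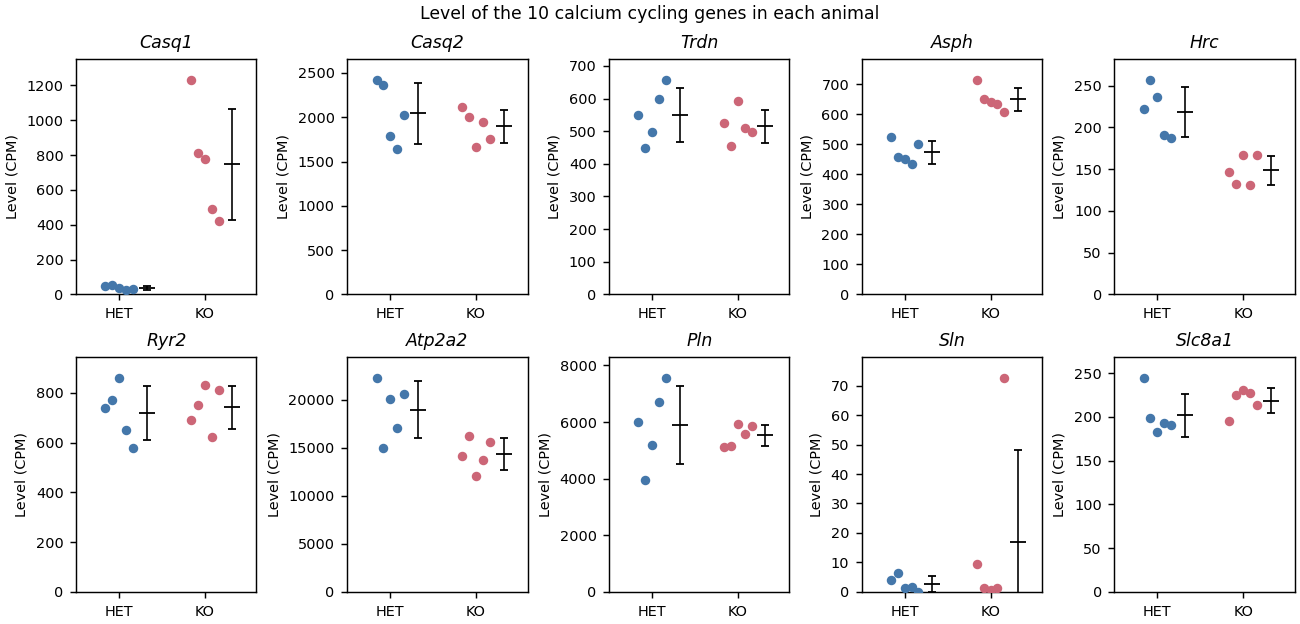
Level of each of the 10 members in CPM on a linear axis from 0. Points are the 5 heterozygotes (HET) and the 5 knockouts (KO), and black marks are means with SD (cut at 0 for Sln). The groups separate for Casq1, Asph and Hrc, and knockout 5 stands alone for Sln at 72.5 CPM.

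On the uptake side, the pump gene Atp2a2 fell. Atp2a2, which encodes SERCA2 (chromosome 5, 122453513 to 122502225), was at 14190.1, 16268, 12019, 13706 and 15569 CPM in the knockouts, against 22262, 14938, 20097, 17048 and 20585 CPM in the heterozygotes. Heterozygote 2 lay within the knockout range, and the other heterozygotes lay above every knockout. The fold change was 0.756 (95% interval 0.637 to 0.897; log2 -0.40, SE 0.115, edgeR adjusted p = 0.0243). The call was lost without heterozygote 1 (adjusted p = 0.0683), heterozygote 3 (0.0719), heterozygote 5 (0.0574), knockout 3 (0.0650) or knockout 4 (0.0541), although the log2 fold change stayed between -0.48 and -0.34. It was also lost with scaling by library totals (log2 fold change -0.32, adjusted p = 0.0565). Endothelial markers summed to 374 to 683 CPM in the knockout and 597 to 1066 CPM in the heterozygote, with 1 of 8 called lower, 7 of 8 at an unadjusted p under 0.05 and 4 of 8 called by DESeq2. With the mean of these markers as a covariate the log2 fold change of Atp2a2 was -0.48 (adjusted p = 0.0671). In RNA from many cells, fewer cells of a type and less RNA per cell cannot be told apart.

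Pln, the phospholamban gene (chromosome 10, 53337686 to 53345999), was not called. It was at 5127, 5137, 5931, 5572 and 5863 CPM in the knockouts, and at 6015, 3961, 5191, 6690.1 and 7552 CPM in the heterozygotes. The knockouts all fell inside the heterozygote range, which was the wider one. The log2 fold change was -0.09 (95% interval -0.39 to 0.21, adjusted p = 0.708).

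Per length, there were 0.834, 0.729, 1.14, 0.939 and 0.869 Pln reads for each Atp2a2 read in the knockouts. The ratio was 0.624, 0.612, 0.596, 0.906 and 0.847 in the heterozygotes. Heterozygotes 4 and 5 lay among the knockouts, and the other 3 lay below them. The means were 0.902 ± 0.153 and 0.717 ± 0.147 (SD, n = 5 each), and the difference of 0.34 on the log2 scale did not pass (exact two-sided permutation p = 0.0794, 0.119 after Benjamini-Hochberg adjustment over 3 ratios).

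Sln, the sarcolipin gene (chromosome 9, 53850251 to 53853849), was low in 9 animals and high in 1. Its level was 9.58, 1.22, 0.780, 1.33 and 72.5 CPM in the knockouts, against 4.16, 6.51, 1.28, 1.67 and 0 CPM in the heterozygotes, where 0 counts allow up to 0.295 CPM. Knockout 5 stood far above the rest, knockout 1 lay above the highest heterozygote, and the other 3 knockouts lay within the heterozygote range. Over all animals the log2 fold change was 2.65 (95% interval 0.29 to 5.01, edgeR adjusted p = 0.112), and without knockout 5 it was 0.20 (adjusted p = 0.907). Knockout 5 was also the only knockout with hardly any RNA of 4 Y-linked genes (mean log2 CPM -3.39), as were heterozygotes 3 and 5 (both -3.58), while the other 7 samples were at 5.10 to 5.73. With that mean as a covariate the log2 fold change of Sln was 1.595 (adjusted p = 0.345). Sln made up 5.57% of Sln plus Pln per length in knockout 5 and 0 to 0.883% in the other 9 samples, and the groups overlapped (exact two-sided permutation p = 0.476, adjusted 0.476).

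Of the 7 atrial markers, Myl7 and Myl4 were highest in the 3 animals with most Sln and lowest in heterozygote 5. Myl7, the atrial regulatory light chain gene, was at 177 CPM in knockout 5, 44.4 in knockout 1 and 36.1 in heterozygote 2, the 3 animals with most Sln, and at 0.197 CPM in heterozygote 5, which had none. Bmp10, a growth factor gene of the atrium, had 230 counts in knockout 5 and 0 to 2 counts in each other sample. It had 0 in knockout 1 and heterozygote 2. Myl4 (85.5 CPM) and Dkk3 (36.8 CPM) were also highest in knockout 5, while Kcnj3 (6.62 CPM, against up to 13.6 in a heterozygote), Stard10 (22.9 against 38.7) and Nr2f2 (2.32 against 5.77) were not. Dkk3 was lower in knockout 1 (3.64 CPM) than in heterozygote 1 (5.29 CPM), and Stard10 was at 25.9 CPM in heterozygote 5. The 7 markers of the list summed to 344 CPM in knockout 5, to 33.1 to 97.8 CPM in the other knockouts and to 37.1 to 121 CPM in the heterozygotes. Of the 6 that were tested, 1 was called, Nr2f2, and it was lower in the knockout (adjusted p = 0.0158). Among these 6, 3 had an unadjusted p under 0.05 and DESeq2 called 2. The part of atrial cells in the Sln values was not tested. Without knockout 5 the log2 fold change of Casq1 was 4.45, against 4.30 over all animals, and that fit kept knockout 1 and heterozygote 2. The part of atrial cells in the Casq1 values was not tested either.

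**Figure D3:**
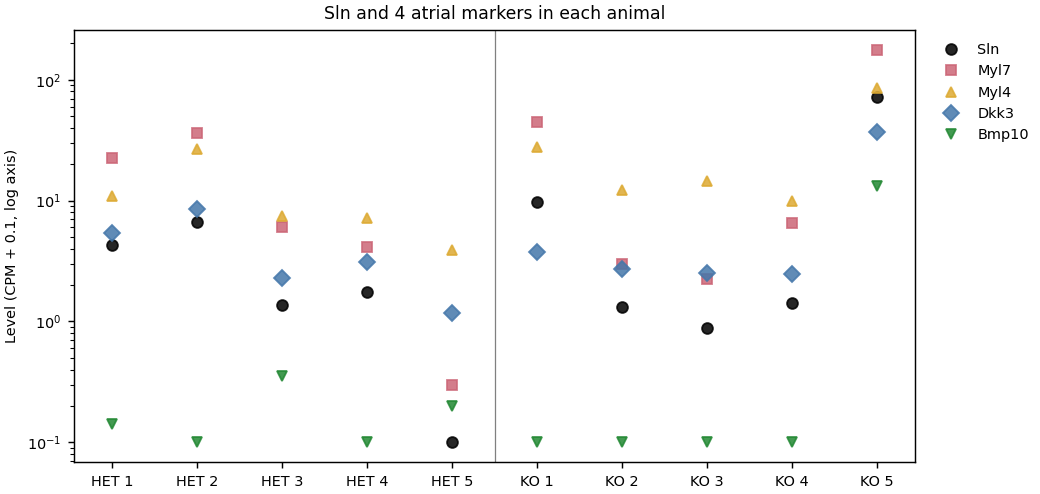
Sln and 4 atrial markers (Myl7, Myl4, Dkk3, Bmp10) in each heterozygote (HET) and knockout (KO), in CPM plus 0.1 on a log axis, where points at the bottom are samples with 0 counts. Sln is highest in knockout 5 at 72.5 CPM, where these 4 markers are also highest, and lowest in heterozygote 5. The other 3 markers of the list (Kcnj3, Stard10 and Nr2f2), which are not highest in knockout 5, are not drawn.

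At the cell surface, Slc8a1, the sodium-calcium exchanger gene NCX1 (chromosome 17, 81373105 to 81738377), was at 195, 225, 231, 228 and 214 CPM in the knockouts, against 244, 198, 183, 193 and 191 CPM in the heterozygotes. Heterozygote 1 was the highest sample of all, and the groups overlapped. Slc8a1 was not called (log2 fold change 0.11, 95% interval -0.09 to 0.32, adjusted p = 0.456).

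Set against the pump in the same animal, the exchanger was higher in the knockout. The Slc8a1 to Atp2a2 ratio per length was 0.00424, 0.00425, 0.00592, 0.00511 and 0.00423 in knockouts 1 to 5, and 0.00338, 0.00408, 0.00280, 0.00348 and 0.00285 in heterozygotes 1 to 5. Every knockout lay above every heterozygote, but knockouts 1, 2 and 5 exceeded heterozygote 2 only narrowly. The difference was 0.52 on the log2 scale, a 1.43-fold higher ratio (exact permutation test, two-sided, p = 0.00794, which is the lowest value possible with 252 arrangements, and 0.0238 after adjustment over 3 ratios). A ratio within a library does not move with the scaling. The separate log2 fold changes were 0.11 for Slc8a1 and -0.40 for Atp2a2.

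**Figure D4:**
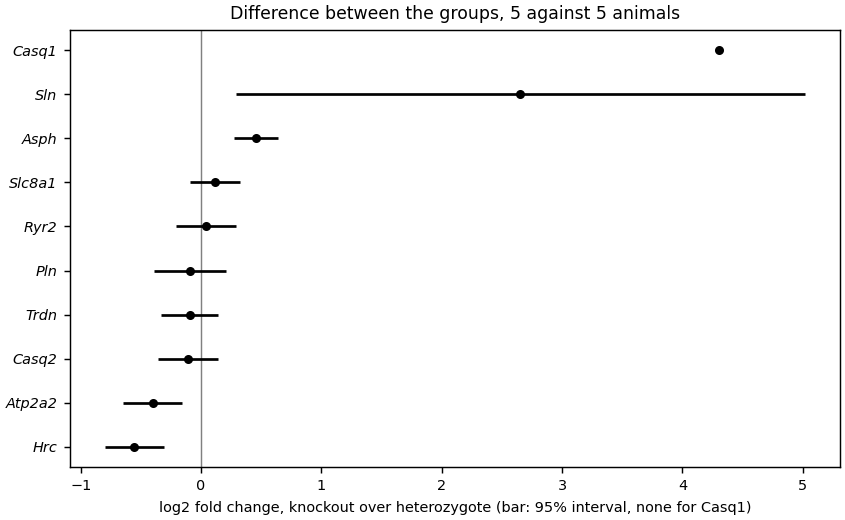
Log2 fold change of each member, knockout over heterozygote, with its 95% interval from edgeR (5 animals in each group, members ordered by size). Casq1, at 4.30, is drawn with no interval because its rise was known when the genes were chosen. The interval of Sln is the widest at 0.29 to 5.01, and those of Slc8a1, Ryr2, Pln, Trdn and Casq2 include 0.

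Between genes, levels per kb of exon spanned a wide range. In the heterozygote Atp2a2 (3316 ± 514 CPM per kb) and Pln (2372 ± 557) stood highest, followed by Casq2 (832 ± 140.0) and Trdn (122 ± 18.1). Hrc (89.9 ± 12.2), Ryr2 (42.8 ± 6.47) and Asph (38.5 ± 3.05) came next, and Casq1 (20.2 ± 6.97), Slc8a1 (10.8 ± 1.32) and Sln (5.24 ± 4.996) were lowest (SD, n = 5). Ranges of neighbours in this order overlapped for Atp2a2 and Pln, Trdn and Hrc, Ryr2 and Asph, Casq1 and Slc8a1, and Slc8a1 and Sln. In the knockout Casq1 (398 ± 170.3 CPM per kb) stood in place 4, between Casq2 (771 ± 76.8) and Trdn (114 ± 11.1), and overlapped neither. Asph (52.8 ± 3.17) stood above Ryr2 (44.1 ± 5.13), in the reverse of their heterozygote order, and only the highest Ryr2 value passed the lowest Asph value. Exon length here is that of all annotated exons, 18599 bases for Slc8a1.

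Around these genes, 5 lists of other calcium genes were read from the same test. Of 77 named genes, 74 were in the table and 65 were tested, with 5 called higher and 8 lower, or 13 of 65, near the 18.9% of all genes. Their median log2 fold change was -0.01. By list the share called was 11.1% (release unit), 31.2% (pumps and regulators), 8.33% (lumen), 12.5% (extrusion) and 36.4% (mitochondrial). Of all tested genes 18.9% were called, and in 14.7% the groups did not overlap. With scaling by library totals 8 of the list genes were higher and 5 lower. With the endothelial covariate 4 calls were left in the lists, those of Camk2b, Atp2a3, Atp1b2 and Vdac1. Over all 11870 tested genes the calls numbered 2241 without that covariate and 1179 with it. The 9 genes that lost their call with it kept their direction, with adjusted p of 0.0574 to 0.233. The log2 fold change went from -0.40 to -0.41 for Tmem38a and from 0.57 to 0.64 for Itpr1. Over the 10 further settings, of which this covariate is 1, that of Pde3a went down to 0.28 and that of Cnpy2 to 0.36.

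Among genes of the release unit and the junctional reticulum, 18 were tested, 1 rose and 1 fell (median -0.12). Tmem38a, a potassium channel of the reticulum membrane, fell from 725 ± 72.9 to 548 ± 41.7 CPM without overlap (log2 fold change -0.40, edgeR adjusted p = 0.00691). Itpr1, an inositol trisphosphate receptor gene, rose from 21.1 ± 3.29 to 31.1 ± 5.64 CPM (log2 fold change 0.57, adjusted p = 0.0154). Ryr3, a minor ryanodine receptor, was at 2.07 ± 0.608 and 1.21 ± 0.597 CPM and was not called (adjusted p = 0.127).

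Of 16 tested pumps, regulators and kinases or phosphatases that act on them, 2 rose and 3 fell (median 0.06). Camk2b, the beta chain of the calcium/calmodulin-dependent kinase, rose without overlap, from 20.5 ± 3.87 to 41.7 ± 5.46 CPM (log2 fold change 1.03, edgeR adjusted p = 0.000155). Atp2a3, the SERCA3 gene, fell from 8.12 ± 2.22 to 4.17 ± 0.547 CPM (log2 fold change -0.96, adjusted p = 0.00430). Pde3a, a cyclic nucleotide phosphodiesterase gene, rose by 0.37 on the log2 scale (adjusted p = 0.0489). Ppp1ca, a catalytic subunit of protein phosphatase 1, fell by 0.32 (adjusted p = 0.0304), and Ppp2r5a, a regulatory subunit of protein phosphatase 2A, by 0.28 (adjusted p = 0.0279). Omitting single animals ended the call of Pde3a in 8, of Ppp1ca in 4 and of Ppp2r5a in 7 of 10 fits.

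Chaperones and buffers of the lumen, 12 of them tested, gave 1 rise and 0 falls (median 0.11). The riser was Cnpy2, from 37.0 ± 4.08 to 50.1 ± 5.65 CPM (log2 fold change 0.44, edgeR adjusted p = 0.0111). Of 8 tested genes of calcium extrusion and the sodium gradient, 1 rose (median 0.02): Atp1b2, a beta subunit of the sodium pump, went from 22.6 ± 2.58 to 36.3 ± 3.85 CPM without overlap (log2 fold change 0.68, adjusted p = 0.000791). The exchanger paralogs Slc8a2 and Slc8a3 stayed below 1 CPM in every sample and were not tested.

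Genes of mitochondrial calcium transport gave 4 falls and 0 rises among 11 tested (median -0.26), against 8.64% of all genes called lower. The outer membrane channel genes Vdac1, Vdac2 and Vdac3 fell by 0.38, 0.31 and 0.26 on the log2 scale (edgeR adjusted p = 0.00599, 0.0115 and 0.0477). Ccdc90a, also named Mcur1, a regulator of the uniporter, fell from 146 ± 3.47 to 114 ± 7.26 CPM (log2 fold change -0.35, adjusted p = 0.00681). In these 4 of the 11 every knockout lay below every heterozygote, against 6.32% of all tested genes. Omitting single animals ended the call of Vdac3 in 8 of 10 fits.

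**Figure D5:**
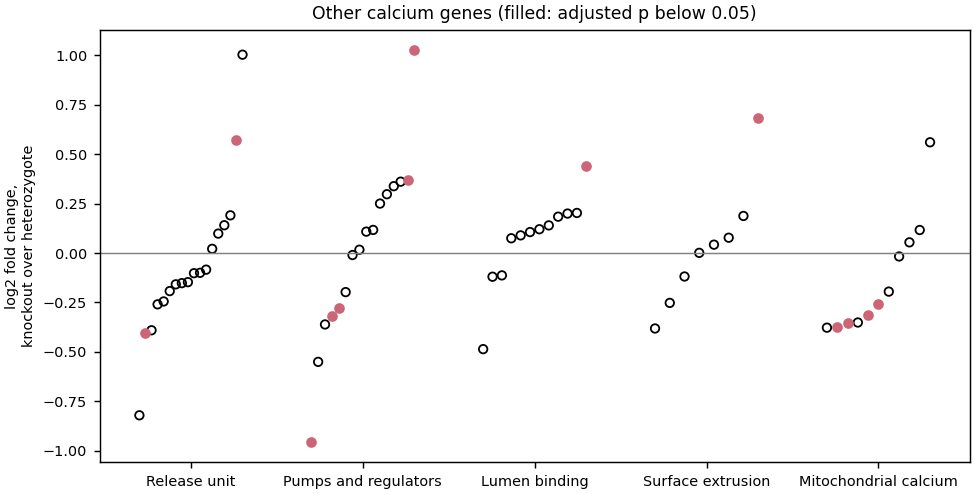
Log2 fold change, knockout over heterozygote, of the 65 tested genes in 5 calcium lists, ordered by size within a list. Filled points are genes called by edgeR and open points are not, with 4 of the filled points of the mitochondrial list below 0 and the highest filled point that of Camk2b at 1.03.

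Further marker lists were read for other cells. Of 7 tested fibroblast markers 0 were called with edgeR, 0 had an unadjusted p under 0.05 and 0 were called by DESeq2, and their sums were 318 to 648 CPM in the knockout and 330 to 538 CPM in the heterozygote. Smooth muscle and pericyte markers gave 1 call up and 1 down of 7 tested, while 3 had an unadjusted p under 0.05 and DESeq2 called 3. Their sums were 194 to 291 CPM in the knockout and 173 to 284 CPM in the heterozygote. Cspg4 alone gave 106 to 159 and 26.5 to 43.8 CPM of these. Myh11, Tagln, Rgs5, Pdgfrb and Kcnj8 had lower means in the knockout, and Cnn1 had a higher one. Leukocyte markers were low, at 7.497 to 10.2 CPM in the knockout and 13.1 to 31.1 CPM in the heterozygote, with 1 of 3 tested called lower. Of these 3, 2 had an unadjusted p under 0.05 and DESeq2 called 2. Of 5 erythroid markers the 4 globin genes are listed at 0 in all 10 samples, which may mean that they were not counted, and Alas2 alone gave 0.0976 to 0.625 and 0.123 to 1.15 CPM.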

How the data were processed

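Poly(A) RNA of sorted cardiomyocytes was made into libraries from 10 ng of total RNA (8 PCR cycles, 500 pg of cDNA per library), per the labels' protocols. The deposited values are raw read counts per gene. Per the file headers, the authors counted with featureCounts 1.5.1 and 4 threads, with no option for strand, on a UCSC mm10 annotation archived in 2012. The submitters' processing notes name STAR 2.5.3a and Subread 1.5.2, without their roles. Each numbered sample is called an animal here, but the labels do not state that samples came from separate animals, and p-values then measure only the spread between these samples, which may be technical. Reads that overlap several genes are left out by that program's defaults. Of 14 count columns, 10 match samples and 4 match none and were not used.

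Genes were kept with filterByExpr (minimum count 10, minimum total 15), scaled by TMM and compared with edgeR 4.0.16 (R 4.3.3), without covariates and with DESeq2 1.42.0 and limma voom 3.58.1 as alternatives, with Benjamini-Hochberg adjustment over 11870 genes. The SE is the fold change over the square root of F. Ratios were compared with exact permutation tests (scipy 1.17.1). In simulated counts for 11870 genes, 72.4% of 2-fold and 98.0% of 4-fold changes were recovered, and 3.93% of calls were false. In that simulation 200 tested genes were changed, fewer than the 2241 called in the data. Changes under 2-fold, such as those of the called members, were not simulated, so these rates need not hold for them. No pair of replicates agreed within sampling noise (chi-square per degree of freedom 10.8 to 37.5 over 20 pairs). The smallest level that 3 counts can show was 0.126 to 0.384 CPM.

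The members and lists were chosen with earlier results of these data known. Named genes are the members, up to 4 called genes of each list by size with a mean of at least 10 CPM, paralogs of members, genes near Actn2 and the 5 genes nearest to Casq1. Cacna1s, Mylpf, Myh8, Nr2f2, Gm10336, Mtr and the markers named with Sln were chosen after their values were seen. Mrln, Mcu, Mcur1, Micu2, Micu3, Smdt1 and Slc8b1 were matched by older names from the RefSeq table, which also supplied the promoter sequences.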

Additional observations from a re-analysis of the deposited data

Results flagged for a closer look

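In 38 groups of 5 values (totals, members and Actn2, ratios and 3 marker sums, taken by genotype), 5 held an extreme sample set off from its nearest neighbour by over 0.71 of the range, where chance gives about 1 in 20, or 2. Of these, 3 are the same animal. Knockout 5 had 72.5 CPM of Sln against 9.58 in the next highest knockout (gap 0.877 of the range), a Sln share of 5.57% against 0.883% (gap 0.851), and an atrial marker sum of 344 CPM against 97.8 (gap 0.792). The library of heterozygote 1 totalled 25237696 counts, and the next among the heterozygotes 10309615 (gap 0.870), and 244 CPM of Slc8a1 against 198 (gap 0.748).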

How the results depend on the processing

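Of the 9 tested members other than Casq1, 2 to 3 were called under each alternative and 2 to 3 when 1 animal was left out; Asph and Hrc were always among them. Calls over all genes numbered 1179 with the endothelial covariate and 1699 to 2258 without single animals. Calls in the calcium lists numbered 4 with that covariate, where the 9 lost kept their direction, and 9 to 14 without single animals. Ryr2 changed sign with the endothelial covariate (-0.087) and without heterozygote 5 or knockout 3 (range -0.023 to 0.114 over single animals), Pln without heterozygote 5 (0.017, range -0.20 to 0.017), and Sln with the endothelial covariate (-1.16); the cause was not tested. The Casq1 share differed by 28.1 to 32.9 points without single animals, and by 25.6 points with counts not divided by length. The Slc8a1 to Atp2a2 difference was 0.44 to 0.60 without single animals. Its exact permutation test gave an adjusted p of 0.0476 in all 10 fits, from the lowest unadjusted p that they allow. The Pln to Atp2a2 difference was 0.25 to 0.43 and that of the Sln share 0.025 to 1.40 points. Whether the replicate numbers pair the animals could not be decided. Correlations of same-numbered samples were -0.060 to 0.185, with 2 of 5 heterozygotes closest to their own number. With the replicate number as a block 2182 genes and 3 of the 9 members were called, and the log2 fold change of Sln was 1.03. The block was not applied to the ratios. Depth limits Sln, with 0 to 99 counts in each heterozygote.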

Other observations

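Slc8a2, the neuronal paralog of the exchanger, was below the filter, with 5, 2, 3, 3 and 17 counts in knockouts 1 to 5 and 1, 0, 0, 1 and 0 counts in heterozygotes 1 to 5. Cspg4, read here as a pericyte marker, was at 132 ± 21.3 CPM in the knockout and 37.0 ± 6.39 CPM in the heterozygote (SD, n = 5 each; log2 fold change 1.84, edgeR adjusted p = 1.23e-06), and was the riser of its list. Both were chosen after their values were seen.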
